A study of Mus musculus with 24 samples.

Results

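The array probes A_55_P1972099, A_55_P2030468, A_55_P2183715 and A_55_P2385960 were bright in every control kidney and far lower in most mgb-/- kidneys of the same experiment. They are 4 of the 55681 probes on the array and 4 of the 38848 kept because 5 or more kidneys read them well above background. The 4 were chosen by this contrast itself, so their levels in mgb-/- against control kidneys are a description with no test. The files list A_55_P1972099 under AK143946, a cDNA clone accession without a gene symbol. A_55_P2385960 is listed under AK002417, which a table of the study calls 0610009K14Rik, a name of the kind given to unstudied cDNA clones. A_55_P2030468 and A_55_P2183715 carry nothing but their probe names. None of the 4 matched the RefSeq table used for naming, so their place in the genome and their sequences are not given here.

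The kidneys came from male mice that the labels call young adult and the study's methods describe as age-matched and a few weeks old, around the time of weaning. Controls were mgb+/+ (6 kidneys) and the mutants were mgb-/- with hydronephrosis that ultrasound had graded mild (7 kidneys), moderate (5) or severe (6). The megabladder (mgb) mouse carries a mutation that leaves the bladder without muscle tone, so urine backs up and the kidneys dilate from fetal life on. The grade is a measure of the renal parenchyma that remains, and the labels do not say which kidneys shared a mouse. Each whole kidney was 1 sample, so fewer cells of a type and less RNA per cell cannot be told apart. The 24 arrays lay on 3 slides of 8, each slide with 2 control and 6 mgb-/- kidneys. Between 56.6% and 71.5% of spots stood well above background on an array. Myocd, the smooth muscle regulator whose loss goes with the mgb mutation, ran from -4.81 to -2.29 in controls and from -4.91 to -2.32 in mgb-/- kidneys, so its probe gives no check of the genotype labels in whole kidney.

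Many probes of such arrays were designed on cDNA clones and predicted transcripts that no gene symbol covers. One way to place such a transcript is to ask which named genes are high and low in the same samples. In the mouse kidney the proximal tubule, the segment that reabsorbs solutes and secretes organic ions, holds many transporters and steroid and drug metabolising enzymes whose RNA differs between the sexes. Several of these are known to need androgen in male mice. Likeness of pattern names neither the transcript nor its regulator.

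Levels are log2 signals of a probe, scaled so that 0 is the 75th percentile of that array, and each probe was compared only with itself across kidneys. Read as numbers, the selection was met by probes with every control above 0 and at least 13 of the 18 mgb-/- kidneys below -3, a reading set after the values were seen. Of the 38848 probes, 12307 had all controls above 0 and 6 also had the 13 low mgb-/- kidneys, which is 0.0154% of all probes. These 6 were the 4 probes described here, A_51_P215559 of Gstp3 with 13 low kidneys, and A_55_P2346639 of Sec14l3 with 14. Just outside lay Slco1a1 with 12 low kidneys, Gm4208 with 10 and the unnamed probe A_55_P1973813 with 9. Each of the 4 members had exactly 13.

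A_55_P1972099 had a lowest, median and highest level of 1.27, 2.03 and 2.19 over the 6 control kidneys. Its level was -5.55, -4.77 and -0.05 in the same order over the 7 mild kidneys, and -7.48, -4.52 and 1.73 over the 6 severe kidneys. The 5 moderate kidneys stood at -5.45, -4.65, -4.49, 0.32 and 2.08. The mutant kidneys thus fell into a low and a high set with nothing between -4.06 and -1.44, and 16 of 18 lay below the lowest control. The mean was 1.90 ± 0.36 over the controls (SD, n = 6) and -3.54 ± 2.78 over the mutants (SD, n = 18), a difference of -5.44. In unscaled intensity the probe read 1307 to 3941 in controls and 5.43 to 2623 in mgb-/- kidneys, and it was not well above background in 5 of the 18.

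A_55_P2030468 stood at 2.05, 2.42 and 2.64 (lowest, median and highest) in controls. In mild kidneys its levels were -5.32, -4.27 and 0.71, and in severe kidneys -6.25, -4.60 and 2.92. The moderate kidneys stood at -7.73, -6.97, -6.64, 1.13 and 2.61. Again 16 of 18 mgb-/- kidneys lay below every control, and the low and high sets were parted between -3.03 and -0.55. Its mean was 2.37 ± 0.21 over the controls (SD, n = 6) and -3.40 ± 3.34 over the mutants (SD, n = 18), a difference of -5.78. It was not well above background in 6 of 18.

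A_55_P2183715 stood at 1.79, 2.77 and 2.80 in controls. Its levels were -8.06, -7.32 and 1.39 in mild kidneys and -8.53, -5.80 and 2.74 in severe kidneys. The moderate kidneys stood at -8.09, -7.91, -7.02, 1.62 and 2.84. Here the low set was at background throughout, since the probe was not well above background in 13 of 18 mgb-/- kidneys, and values from -8.53 to -5.16 have no reliable order. Its mean was 2.55 ± 0.40 over the controls (SD, n = 6) and -4.83 ± 4.14 over the mutants (SD, n = 18). The difference of -7.38 became -6.28 when every kidney not well above background was raised to the lowest signal that was. The intensity ran from 1872 to 5971 in controls and from 2.16 to 4449 in mgb-/- kidneys, and 16 of 18 lay below every control.

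A_55_P2385960 (0610009K14Rik) stood at 0.65, 1.74 and 2.19 in controls. Its levels were -5.91, -4.88 and 1.34 in mild kidneys and -7.10, -3.78 and 1.45 in severe kidneys. The moderate kidneys stood at -5.89, -5.00, -4.85, 1.31 and 1.72. It overlapped controls more than the others, with 14 of 18 mgb-/- kidneys below the lowest control, because control replicate 5 read 0.65. Its mean was 1.64 ± 0.52 over the controls (SD, n = 6) and -3.49 ± 2.97 over the mutants (SD, n = 18), a difference of -5.13. It was not well above background in 4 of 18.

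**Figure D1:**
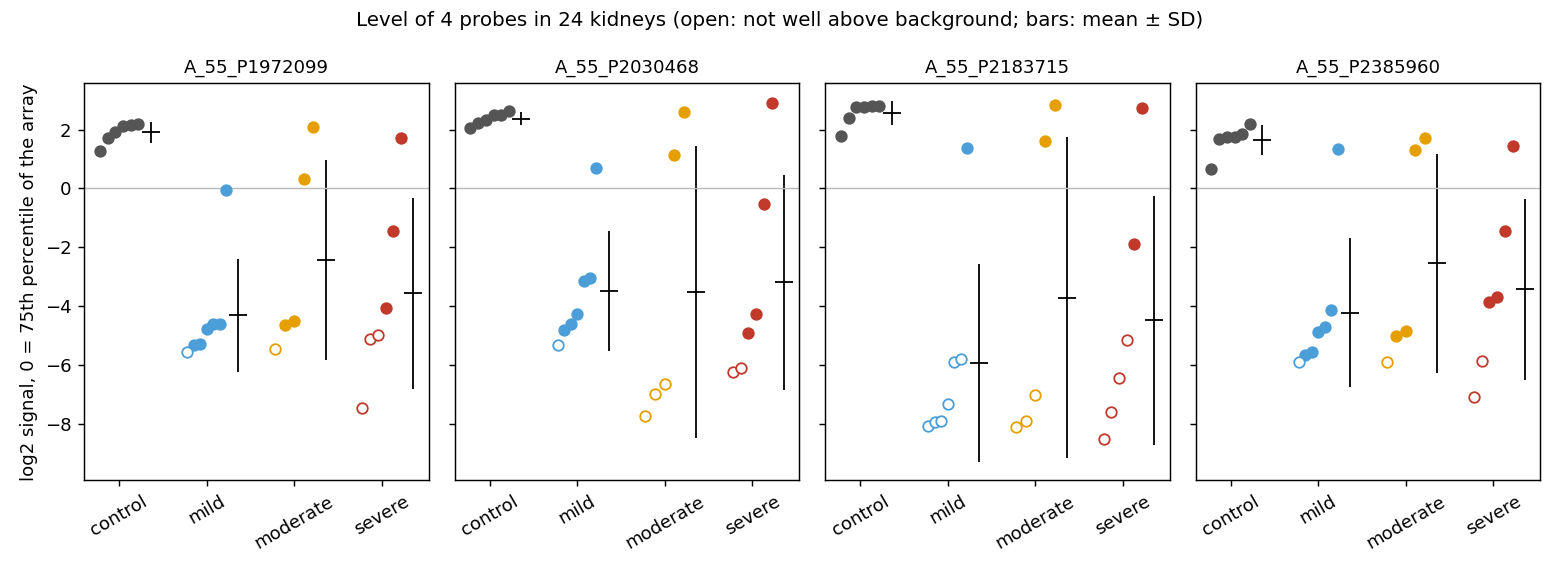
Log2 signal of each of the 4 probes (vertical axis, 0 = the array's 75th percentile) in each kidney by group, with open points for kidneys not well above background and bars for the group mean ± SD. Each grade of mgb-/- kidneys holds at least 1 kidney far above its other kidneys and at least 3 far below the controls, and the means lie where few kidneys do.

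The same 5 mgb-/- kidneys were the highest in all 4 probes. Moderate replicate 2 read 2.08 for A_55_P1972099, 2.61 for A_55_P2030468, 2.84 for A_55_P2183715 and 1.31 for A_55_P2385960. Severe replicate 6 read 1.73, 2.92, 2.74 and 1.45 in the same order. For each probe these 2 kidneys lay above the lowest control, so a moderate and a severe kidney held the transcripts at the level of controls. Moderate replicate 5 read 0.32, 1.13, 1.62 and 1.72, and mild replicate 4 read -0.05, 0.71, 1.39 and 1.34. Both were below every control for the first 3 probes and inside the control range for A_55_P2385960. Severe replicate 3 lay between the sets, at -1.44, -0.55, -1.89 and -1.46, and was well above background for all 4.

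In the other 13 mgb-/- kidneys every probe was below -3. The largest gap in the mean of the 4 probes, 3.27, lay just above these 13 kidneys, and the next largest was 2.18. By grade, 1 of 7 mild, 2 of 5 moderate and 2 of 6 severe kidneys lay above the gap. By slide the number was 1, 3 and 1 of 6. The share of spots well above background was 64.5% for moderate replicate 2, 63.0% for severe replicate 6, 63.7% for moderate replicate 5, 63.4% for mild replicate 4 and 61.8% for severe replicate 3. Severe replicate 5, the lowest kidney in the mean of the 4, had 67.2%.

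**Figure D2:**
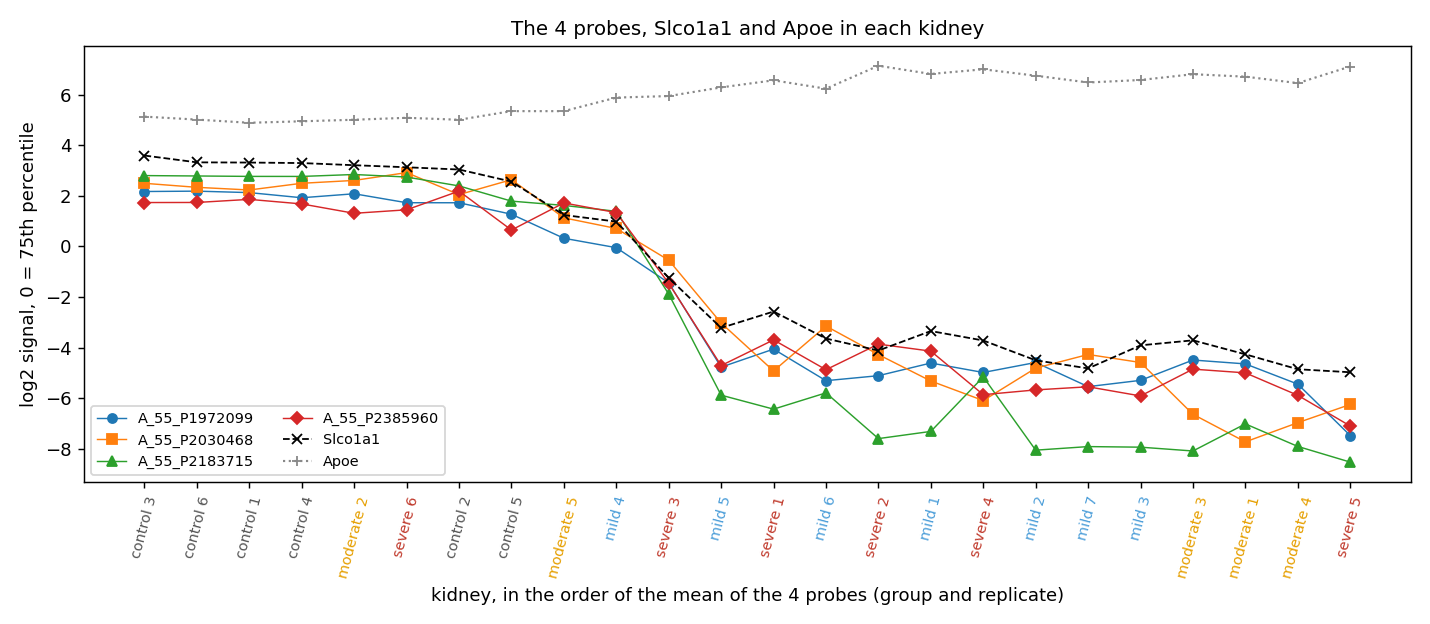
Log2 signal (vertical axis, 0 = 75th percentile) of the 4 probes, Slco1a1 and Apoe in the 24 kidneys, ordered along the horizontal axis by the mean of the 4 probes. The 4 probes drop together past mild replicate 4, Slco1a1 drops with them from 3.59 at most to -4.98 at least, and Apoe runs the other way.

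Within each slide the mgb-/- mean was below the control mean for every probe. The difference was -6.26, -4.15 and -5.92 on slides 1, 2 and 3 for A_55_P1972099, and -7.01, -4.16 and -6.16 for A_55_P2030468. It was -8.83, -5.41 and -7.91 for A_55_P2183715 and -5.62, -4.07 and -5.70 for A_55_P2385960. Slide 2, which held 3 of the 5 high kidneys, gave the smallest difference for each.

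The selection did not use the grade of hydronephrosis, so the grades can be compared, within a limit. With at least 13 of 18 mgb-/- kidneys low, a probe high in all 7 mild or all 6 severe kidneys could not be chosen. The same 5 kidneys were high in all 4 probes, so the 4 results are not separate. In a limma fit over all 38848 probes with 1 mean for each of the 4 groups, none of the 4 probes was called for a difference among mild, moderate and severe kidneys. The adjusted p of the moderated F test was 0.781 for A_55_P1972099, 0.993 for A_55_P2030468, 0.847 for A_55_P2183715 and 0.843 for A_55_P2385960. By an adjusted p of the F test under 0.05, 98 of 38848 probes (0.252%) were called. None of the 4 reached an unadjusted p under 0.05 either, a threshold for which the share of all probes is not given here.

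Between severe and mild kidneys none of the 4 reached an adjusted p below 0.05 with a 2-fold change, nor an unadjusted p below 0.05 alone. Over all probes, at an adjusted p below 0.05 with a 2-fold change, 141 were higher and 3 lower in severe kidneys, 0.371% in all. A_55_P1972099 differed by a log2 value of 0.75 (SE 1.31, adjusted p = 0.884 by limma), with a 95% interval of -1.96 to 3.46. The exact permutation test over the 6 severe and 7 mild kidneys gave p = 0.627, two-sided. A_55_P2030468 differed by 0.30, with an interval of -3.09 to 3.69 (limma adjusted p = 0.973, exact permutation p = 0.854). For A_55_P2183715 the difference was 1.45, with an interval of -2.64 to 5.55 (limma adjusted p = 0.839, exact permutation p = 0.507). For A_55_P2385960 it was 0.80, with an interval of -2.14 to 3.73 (limma adjusted p = 0.888, exact permutation p = 0.617). Within slides 1, 2 and 3 (1, 2 and 3 severe against 3, 2 and 2 mild kidneys) it was -1.71, 0.22 and 2.86 for A_55_P1972099 and -1.32, 0.52 and 1.17 for A_55_P2030468. It was -2.99, 1.76 and 3.91 for A_55_P2183715 and -1.08, 0.91 and 2.69 for A_55_P2385960, so the sign was not the same on all slides. The intervals span several log2 units to either side, so grades that differ by several fold could not be told from equal ones with these kidneys. The fit shares 1 spread over all 4 groups, although the SD of A_55_P1972099 was 0.36 in control, 1.92 in mild and 3.24 in severe kidneys. Values that fall into a high and a low set do not suit such an interval either, so the limits are approximate and may be too narrow. Without severe replicate 6 the difference was -0.30 for A_55_P1972099, -0.92 for A_55_P2030468, 0.0085 for A_55_P2183715 and -0.18 for A_55_P2385960, so the sign turned for 3 of the 4 probes. That of A_55_P2030468 also turned without severe replicate 3 (-0.23) and without mild replicate 1 (-0.0045).

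**Figure D3:**
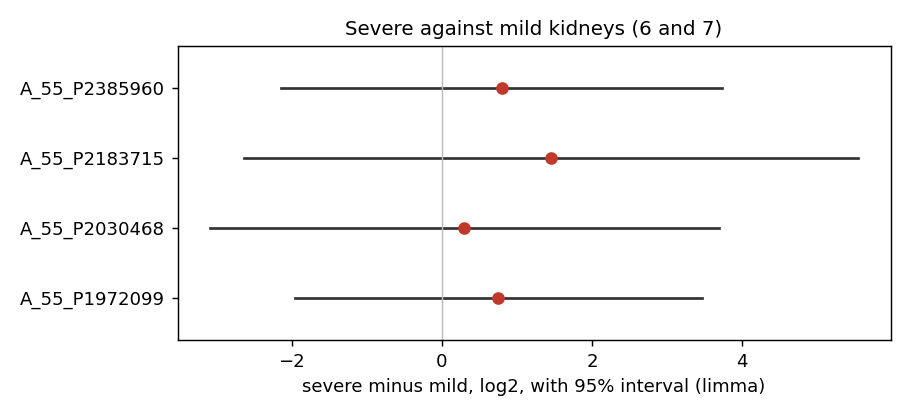
Fitted difference between severe and mild kidneys on the log2 scale (horizontal axis) for each probe, as points with 95% intervals from limma. Each interval covers 0, from -3.09 at the lowest end to 5.55 at the highest.

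The probes followed each other over the 24 kidneys with Pearson r from 0.948 to 0.980, and over the 18 mgb-/- kidneys from 0.908 to 0.968. The high and low sets and the selection both shape these values, so they are not read as a relation. Within the 13 low kidneys, which were taken as low in these same probes, 6 pairs were compared. The 3 pairs with A_55_P2183715 carry no order, since this probe was well above background in none of the 13. The others were well above background in 8 (A_55_P1972099), 7 (A_55_P2030468) and 9 (A_55_P2385960) of the 13. Of the pairs among these 3 probes, 1 passed the test, A_55_P1972099 with A_55_P2385960 (r = 0.75, permutation p = 0.00232, adjusted p over the 6 pairs = 0.0139, 13 kidneys). By rank the same pair gave rho = 0.62 (permutation p = 0.0276, adjusted p = 0.166). Without the 2 kidneys farthest from the median of A_55_P1972099 the r was 0.37, so the relation rests on those kidneys. Severe replicate 5, which is among them, had the highest 75th percentile of all arrays, an intensity of 968. The scaling subtracts its log2 from every level of that kidney, and the part of this in the r was not tested. Leaving out severe replicate 5 alone gave an r of 0.56 with an adjusted p of 0.349, and leaving out severe replicate 1 gave 0.70 with an adjusted p of 0.068. Nor did the pair pass after median scaling (adjusted p = 0.0671 over 13 kidneys, permutation test), quantile normalization (0.0805) or in the authors' table (0.400).

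Which named genes share the pattern was asked over 16314 genes, each read by its brightest probe, the one with the highest mean over 24 kidneys. The measure was Pearson r with the mean of the 4 probes, a description of genes picked as the most alike, with kidneys sharing slides and the control contrast. The gene most like the 4 was Slco1a1, an organic anion transporter of the proximal tubule that is known to depend on androgen in male mice. Its r was 0.990 over 24 kidneys and 0.983 over the 18 mgb-/- kidneys. Its levels ran from 2.56 to 3.59 in controls and from -4.98 to 3.21 in mgb-/- kidneys. Slco1a1 repeated the order of the high kidneys: moderate replicate 2 at 3.21, severe replicate 6 at 3.13, moderate replicate 5 at 1.24, mild replicate 4 at 0.98 and severe replicate 3 at -1.24. The next mgb-/- kidney was severe replicate 1 at -2.58.

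Cabp2, which encodes a calcium binding protein, came second (r = 0.981 over 24 and 0.968 over 18 kidneys), with -1.48 to -0.98 in controls and -6.42 to -1.45 in mgb-/- kidneys. Gm4208, a predicted gene, was at 1.36 to 1.69 in controls and -5.82 to 1.97 in mutants (r = 0.978 and 0.961). These are the 2 genes among the 10 most alike of every one of the 4 probes, out of 25 that were among the 10 of any. The sulfotransferase gene Chst7 (r = 0.977 over 24 kidneys) spanned a smaller range, 3.99 to 4.22 in controls and -0.26 to 4.13 in mgb-/- kidneys. Gstp3, a glutathione S-transferase that also met the selection, had r = 0.974 and stood at 1.17 to 1.73 and -6.06 to 1.59.

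The rest of the closest 10 held a pair of hydroxysteroid dehydrogenase family genes, Hsd17b13 (r = 0.971 over 24 kidneys) and Hsd17b11 (0.970). With them were Sap30, a subunit of the Sin3 corepressor complex (0.971), the dipeptidase gene Cndp2 (0.966) and the heparan sulfate proteoglycan gene Sdc2 (0.966). Hsd17b11 stood at 6.63 to 6.93 in controls and at 3.56 to 6.85 in mgb-/- kidneys. In all, 194 of 16314 genes had r of at least 0.9 over 24 kidneys and 71 over the 18 mgb-/- kidneys, while the median over all genes was 0.05 and 0.07. The count shows how many genes separate the high from the low kidneys in the same way. The genes named above parted within the 13 low kidneys. There r with the mean of the 4 probes was 0.79 for Slco1a1, 0.78 for Hsd17b13, 0.77 for Cabp2, 0.63 for Gm4208, 0.49 for Hsd17b11 and 0.47 for Cndp2. It was only 0.28 for Sdc2, 0.15 for Gstp3, 0.11 for Sap30 and 0.06 for Chst7, so the r of these genes over 24 kidneys rests on the split of high and low kidneys. The mean includes A_55_P2183715, well above background in none of the 13, and the other probes were so in 7 to 9. Gstp3 itself was well above background in 10 of the 18 mgb-/- kidneys and Cabp2 in 13. Every r with the mean within the 13 low kidneys therefore orders background signal in part, and small differences between genes carry no order. The closest 10 also depend on reading each gene by its brightest probe. A_55_P2346639, a probe of the lipid transfer gene Sec14l3 with a lower mean over 24 kidneys, had r = 0.973 against 0.927 for the probe used. In controls A_55_P2346639 was the brighter of these, with a mean of 2.37 against -0.73. For the cytochrome P450 gene Cyp2j13, the dimmer A_55_P1968250 had 0.975 against 0.963.

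**Figure D4:**
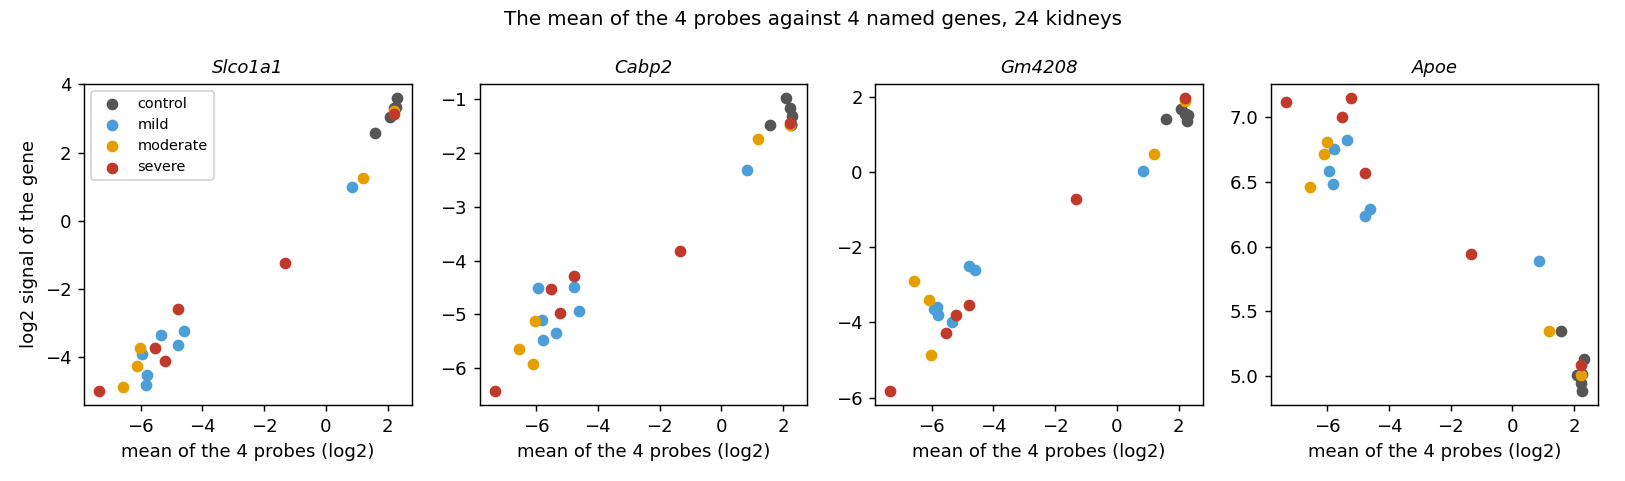
Mean log2 signal of the 4 probes (horizontal axis) against the log2 signal of Slco1a1, Cabp2, Gm4208 and Apoe (vertical axes) in 24 kidneys, coloured by group. Slco1a1 follows the mean through the kidneys between the sets (r = 0.990), and Apoe falls as the mean rises (r = -0.958).

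The opposite pattern was led by Apoe, the gene of the lipid carrier apolipoprotein E, with r = -0.958. It read 4.89 to 5.35 in controls and 5.01 to 7.14 in mgb-/- kidneys, with moderate replicate 2 at 5.01 and severe replicate 6 at 5.09. Il6ra, an interleukin-6 receptor chain, followed with r = -0.954, then Sphk1, a sphingosine kinase (-0.952), the cadherin gene Cdh6 (-0.946) and Serpina10, a secreted serpin (-0.946). Over 24 kidneys 47 genes had r of -0.9 or less.

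Taken singly, 3 of the 4 probes had Slco1a1 as the closest gene, with r over 24 kidneys of 0.989 for A_55_P1972099, 0.984 for A_55_P2183715 and 0.975 for A_55_P2385960. For A_55_P2030468 Slco1a1 ranked 18 (r = 0.959). Its closest gene was Erc2, which encodes a scaffold protein of the presynaptic active zone, with r = 0.988 over 24 and 0.987 over 18 kidneys. Slc22a28, of a family of organic ion transporters, came next at 0.974. Erc2 had r = 0.941 with A_55_P1972099, 0.946 with A_55_P2183715 and 0.934 with A_55_P2385960. Serpina10 was also most opposed to A_55_P2030468, with r = -0.977, and stood at -0.914, -0.925 and -0.917 for the other probes. Within the 13 low kidneys r was 0.94 between A_55_P2030468 and Erc2 and -0.92 with Serpina10. The probe was not well above background in 6 of these 13 kidneys, so its lowest values carry no order. A difference between these correlations was not tested.

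Transcripts without a symbol were compared in the same way, 17004 probes in all, of which 51 had r of at least 0.9 with the mean of the 4. The closest, A_30_P01030680, is placed by the array's annotation at chr4:13536908-13593316 in build mm9, on the reverse strand. It had r = 0.987 over 24 kidneys, a control mean of -0.48 and a median of -7.54 in mgb-/- kidneys. Next came 3 probes of 1 interval, chr15:38205154-38206196 in mm9 on the forward strand, with r from 0.955 to 0.968. On the opposed side, 3 probes of chr9:96632664-96653249 in mm9 on the reverse strand had r from -0.974 to -0.944. Their control means, from -5.38 to -4.46, lay near the lowest signal well above background, which ran from -6.31 to -4.70 over the arrays. The mgb-/- median of A_30_P01030680 lay below that range, so these r values rest in part on signal near background. The files give no gene for these intervals.

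The promoters of the 10 closest named genes were searched for the letters AGAACA or their reverse complement TGTTCT, a core hexamer of steroid hormone response elements. The RefSeq promoter table (build GRCm38.p6, from 250 bases before to 50 after the start) held 8 of the 10, with Cndp2 and Sdc2 not among them. Of these 8 genes 1, Sap30, had the letters, against 6233 of 32851 promoters in the table, 19.0%. Cabp2 and Gm4208 had more than 1 promoter each, all searched and without the letters, so the count of genes is not in the unit of the share of promoters. The promoter of Slco1a1 is shown as that of the closest gene and that of Sap30 for its match, in capitals. Slco1a1 lies at chr6:141946913-141947212 and Sap30 at chr8:57487811-57488110, both on the minus strand. A match of 6 letters is a description of the sequence and not a binding site.
Slco1a1: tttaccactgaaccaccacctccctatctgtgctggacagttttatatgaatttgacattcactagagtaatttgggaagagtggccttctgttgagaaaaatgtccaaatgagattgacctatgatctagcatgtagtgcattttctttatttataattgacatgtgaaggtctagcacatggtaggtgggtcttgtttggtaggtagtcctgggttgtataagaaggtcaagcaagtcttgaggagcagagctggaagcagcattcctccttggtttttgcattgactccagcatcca
Sap30: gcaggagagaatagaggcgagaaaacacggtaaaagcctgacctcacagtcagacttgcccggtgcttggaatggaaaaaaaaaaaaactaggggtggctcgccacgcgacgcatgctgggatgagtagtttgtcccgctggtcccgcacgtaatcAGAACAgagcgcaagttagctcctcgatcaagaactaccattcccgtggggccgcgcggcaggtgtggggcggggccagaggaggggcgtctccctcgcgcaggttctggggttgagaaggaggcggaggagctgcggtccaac

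Gene lists were compared by the r of each gene with the mean of the 4 probes over the 18 mgb-/- kidneys. Over all 16314 named genes the median was 0.07, 9009 (55.2%) had a positive r and 398 (2.44%) had r of at least 0.8. The 12 genes that the study named as male-biased were chosen on these same kidneys as lower in mutants, so they are not independent of the pattern. All 12 had a positive r, with a median of 0.91 and 10 of 12 at 0.8 or above. Ces1f, a carboxylesterase gene, had r = 0.94, and the cytochrome P450 gene Cyp2j13 also had 0.94. The glucuronosyltransferase gene Ugt2b37 had 0.93. The lowest were the fatty acid hydroxylase genes Cyp4a12b (0.73) and Cyp4a12a (0.74), which share much of their sequence and may share signal. The split of high and low kidneys shapes these values. Within the 13 low kidneys r was negative for 5 of the 12, at -0.76 for Cyp7b1, -0.51 for Cyp4a12b, -0.50 for Cyp4a12a, -0.21 for Timd2 and -0.01 for Ugt2b5. The median there was 0.36 for the 12 genes, against 0.12 for all named genes, of which 57.8% were positive.

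Of the 10 genes with the study's largest falls, also chosen on these kidneys, all had a positive r, with a median of 0.92. Slco1a1, Acsm3, Cyp2j13, Ugt2b5, Ugt2b37 and Cyp4a12a are among the male-biased genes too, so the lists are not separate. Human symbols in the study's list were read here as the mouse genes Ces1g, Ugt2b37, Ugt2b5 and Cyp4a12a, a choice that was not tested. Akr1c14, an aldo-keto reductase gene of steroid metabolism, had 0.93 and the methyltransferase gene Inmt had 0.74. The study's 6 female-biased genes ran the other way. Prlr, the prolactin receptor gene, lacked a value in 1 kidney and was left out, and the other 5 were negative with a median of -0.51. Abcc3, an organic anion exporter gene, had r = -0.88 and Serpina6, the gene of corticosteroid binding globulin, had -0.84. This did not hold within the 13 low kidneys, where 4 of the 5 were positive, with a median of 0.53, and Serpina6 had 0.78. Serpina6 stood at 1.57 to 3.99 in controls and at 3.21 to 8.08 in mgb-/- kidneys.

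A list of 6 genes known to respond to androgen in mouse kidney or liver gave a positive r for all 6, with a median of 0.57 and none at 0.8 or above. Of the 6, 3 were positive within the 13 low kidneys, with a median of 0.06. The transporter gene Slc22a30 had 0.78, the cytochrome P450 genes Cyp2e1 and Cyp2d9 had 0.70 and 0.69, the ornithine decarboxylase gene Odc1 had 0.45 and the beta-glucuronidase gene Gusb had 0.44. Kap, a classical androgen-induced transcript of the proximal tubule, had r = 0.44. Its ranges overlapped, at 8.81 to 9.33 in control and 8.11 to 9.52 in mgb-/- kidneys. The 10 immediate early genes, a rapid response to stress and injury, had a median of 0.05, from -0.48 (Egr2) to 0.19 (Ier2), and over the 24 kidneys, controls included, a median of -0.55.

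**Figure D5:**
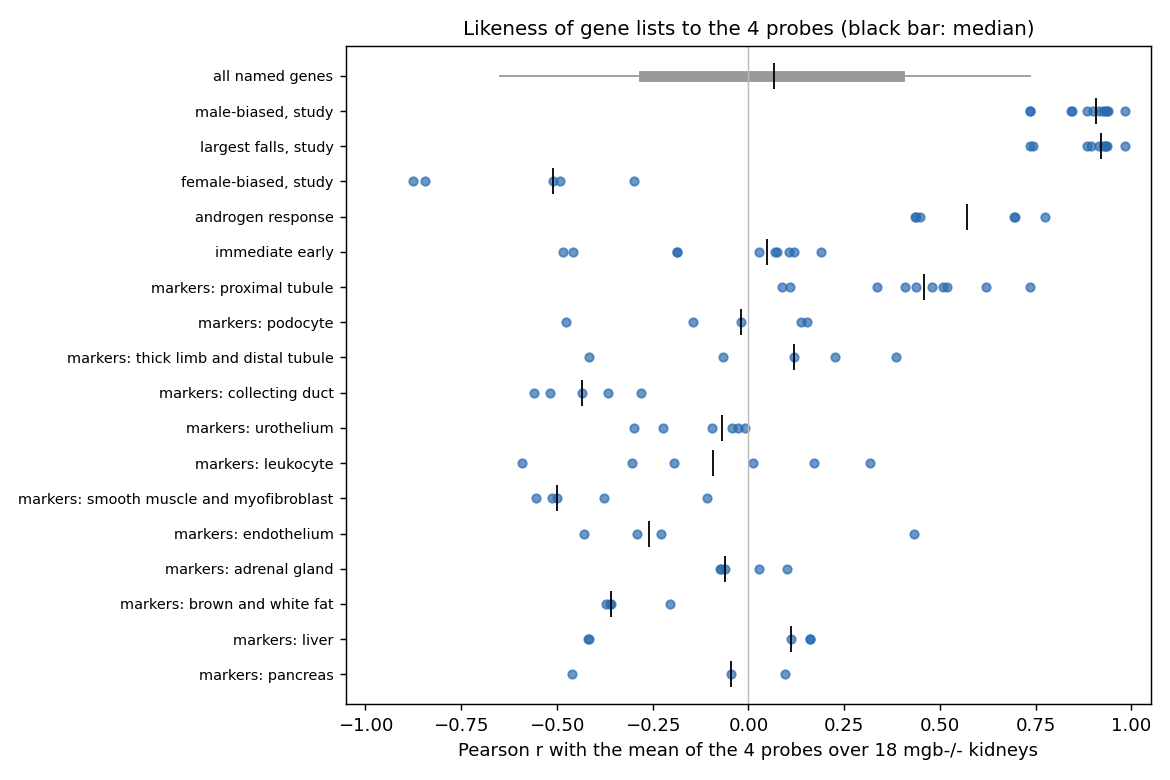
Pearson r with the mean of the 4 probes over 18 mgb-/- kidneys (horizontal axis) for each gene of each list (points) with the list median (black bar). The top row gives all named genes as the middle 50% (thick) and 90% (thin). The male-biased genes of the study gather near 0.91 and the podocyte, urothelium and adrenal markers have medians near 0.

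Cell type markers moved with the 4 probes to varying degree. All 10 proximal tubule markers had a positive r over the 18 mgb-/- kidneys, with a median of 0.46. The organic anion transporter gene Slc22a6 had 0.74 and the phosphate transporter gene Slc34a1 had 0.62, while the water channel gene Aqp1 had 0.09 and the megalin gene Lrp2 had 0.41. All 10 were positive within the 13 low kidneys as well, with a median of 0.59. So were all 5 thick limb and distal tubule markers, with a median of 0.55, so this sign was not particular to the proximal tubule. The mean level of the 10 ran from 7.36 to 7.62 in controls and from 5.74 to 7.87 in mgb-/- kidneys, and all 10 were well above background in all 24 kidneys. The 5 collecting duct markers were all negative over the 18 kidneys (median -0.43) but 4 of 5 were positive within the 13 low kidneys (median 0.27), with a mean level of 1.99 to 2.32 in controls and 1.72 to 3.03 in mutants. The 5 smooth muscle and myofibroblast markers were all negative over the 18 kidneys (median -0.50) and within the 13 (median -0.67), with levels of 0.33 to 1.32 and 0.34 to 2.72. The part of these cell types in the loss of the 4 transcripts was not tested.

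Other markers were less alike over the 18 mgb-/- kidneys. The median r was 0.12 for 5 thick limb and distal tubule markers, -0.02 for 5 podocyte markers, -0.07 for 6 urothelium markers, -0.09 for 6 leukocyte markers and -0.26 for 4 endothelium markers. Tissues that can be dissected along with a kidney gave -0.06 for 5 adrenal markers, -0.36 for 4 fat markers, 0.11 for 5 liver markers and -0.05 for 3 pancreas markers. The 6 adrenal markers on the array had a mean level from -5.70 to -4.96 in controls and from -5.33 to 3.24 in mgb-/- kidneys, and the steroidogenic gene Cyp11a1 was well above background in 7 of 24 kidneys. The 5 fat markers on the array ranged from -3.23 to 0.53 in controls and from -6.40 to 1.91 in mutants. Their part in the values of the 4 probes was not tested.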

How the data were processed

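Total RNA of 24 kidneys was hybridized to 1-colour (Cy3) arrays and read by Agilent Feature Extraction 10.10 according to the submitters' processing notes. The authors deposited the processed spot intensity, background-subtracted within the array and not normalized between arrays, and a table of intensities normalized by a method not given in the sources used here. Control spots and outlier flags were removed, intensity was converted to log2, spots of a probe were averaged and each array's 75th percentile was subtracted. Precision is limited by the number of arrays. Of 55681 probes, 26762 were named through RefSeq accessions (GRCm38.p6, names only) and 54 through the study's tables.

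Fits used limma 3.58.1 in R 4.3.3, which the study also used, with Benjamini-Hochberg adjustment over 38848 probes, and were tested on simulated data. Permutation tests of correlation used 100000 resamples, two-sided. P-values measure the spread between kidneys, and the labels do not say which share an animal. For the 4 probes and their mean, the 10 closest and 5 most opposed genes over 24 kidneys and the 5 closest over 18 were open to naming, with list and marker genes and Myocd. A gene of 1 list is not reported here. The probes, lists and tests were chosen with earlier results of these data known. Alternatives were median scaling, quantile normalization, normexp (offset 50), the authors' table, other filters, 1 probe per gene, slide and replicate blocks, array weights, subsets of groups and leaving out each kidney.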

Additional observations from a re-analysis of the deposited data

Results flagged for a closer look

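In 16 sets of values (4 probes in 4 groups) the highest or lowest kidney was set against its nearest neighbour, as a share of the group's range, and 5 sets held a kidney beyond Dixon's 95% critical value. For a single normal set of values chance flags about 1 set in 20. The probes were chosen as bright in all controls and lost in most mgb-/- kidneys, so this rate holds for neither the control nor the mutant groups. A flag in a mutant group shows the split of high and low kidneys again. The 4 probes share kidneys, so the flags are not separate. Mild replicate 4 was the highest of 7 mild kidneys for all 4 probes, with a gap of 0.826 of the range for A_55_P1972099, 0.62 for A_55_P2030468, 0.76 for A_55_P2183715 and 0.756 for A_55_P2385960. Control replicate 5 was the lowest of 6 controls for A_55_P2385960, with a gap of 0.671 of the range. That kidney also had the lowest control value of A_55_P1972099 and A_55_P2183715, and the highest of A_55_P2030468.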

How the results depend on the processing

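The finding that none of the 4 probes was called between grades held in every fit that could be made, by the F test and for severe minus mild. The filter on all 24 kidneys left no probe of the 4 to test, and a fit of severe and mild kidneys alone has no F test. Over the settings the adjusted p for severe minus mild lay between 0.493 and 1.00, and that of the F test between 0.539 and 1.00. With each kidney left out in turn the severe minus mild difference ranged from -0.30 to 1.54 for A_55_P1972099, from -0.92 to 1.00 for A_55_P2030468, from 0.0085 to 2.67 for A_55_P2183715 and from -0.18 to 1.72 for A_55_P2385960. Besides severe replicate 6, the sign of A_55_P2030468 turned without severe replicate 3 (-0.23) and without mild replicate 1 (-0.0045). The differences turned within slide 1 as well (-1.71, -1.32, -2.99 and -1.08 in the order of the probes), an alternative chosen after seeing the data. With the replicate number as a block (replicate block) the values were 0.55, 0.17, 1.12 and 0.57. Over 33 pairs of kidneys with the same number the correlation of deviations ran from -0.52 to 0.65 with a median of 0.01. Over 182 pairs with other numbers it ran from -0.66 to 0.57 with a median of 0.004. The medians were alike, which cannot show whether any single pair shared a mouse.

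The sign of the mgb-/- minus control difference is fixed by the choice of the probes, so only its size was compared. Normexp, which leaves an offset on dim spots, gave -3.81, -4.06, -4.57 and -3.67. Within the 13 low kidneys 1 of 6 pairs of probes, void pairs with A_55_P2183715 included, passed, against 0 with median scaling, 0 with quantile normalization, 3 with normexp, 0 in the authors' table and 0 by Spearman rho, and from 0 to 1 with each kidney left out. The cause was not tested. The number of named genes with r of at least 0.9 was 194, against 115 with median scaling and 63 by Spearman rho, and from 161 to 246 with each kidney left out. Slco1a1 was the closest gene in all 31 settings, while as few as 2 of the closest 10 were shared, by Spearman rho. Signals near background limit the order of the low kidneys, most for A_55_P2183715, which was at background in all 13.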
